A study of Mus musculus with 4 samples.

Results

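Txnip, its arrestin-domain relatives Arrdc1, Arrdc2, Arrdc3 and Arrdc4, the thioredoxins Txn1 and Txn2 and the thioredoxin reductases Txnrd1 and Txnrd2 were followed in mouse Beta-TC-6 cells depleted of NF45. These 9 genes were taken by name out of 22180 genes that had a probe set with 1 gene symbol, and each of them had exactly 1 such probe set. Total RNA of 4 samples was hybridised to Mouse Gene 2.1 ST arrays of Affymetrix, each sample to an array of its own. The siNTC group (2 samples) received a negative control siRNA and the siNF45 group (2 samples) a mixture of 3 RNAi duplexes against NF45, the protein encoded by Ilf2. Both groups are the same cell line, a single line of pancreatic beta cell origin, grown in medium with 25 mM glucose and 15% serum and transfected with the same lipid reagent. Separate transfections are not stated for the samples within a group, so errors and p-values reflect sample-to-sample spread that may be only technical. Expression is given as the deposited value, taken as log2, so a difference of 1 is a 2-fold change, and levels of different genes are not set against each other because each probe set has its own response.

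The targeted gene followed the labels. Ilf2 was at 5.79 and 5.98 in siNTC and at 3.67 and 3.77 in siNF45, and it fell by 2.17 (SE 0.13, limma adjusted p = 0.020). The 7 measured beta cell markers, among them Iapp, Pdx1 and Mafa, read between 5.50 and 10.17 on all arrays, and their summed signal was 11.3 to 11.4 in siNTC and 11.4 in siNF45 on the log2 scale. Markers of other islet cells were also present, with a summed signal of 9.35 to 9.68 in siNTC and 8.88 to 8.99 in siNF45. The brightest of these 7 markers was somatostatin (Sst), at 9.19 and 8.83 in siNTC and 8.18 and 8.07 in siNF45. The others did not share one direction. Irx1 differed by -0.55, Irx2 by -0.39, Hhex by -0.08, Gcg by -0.02, Ghrl by 0.05 and Ppy by 0.52. The siNF45 mean of Irx1, 1.39, was below the signal filter. A list of 16 markers for mesenchyme, immune cells, endothelium, ducts and exocrine tissue had 4 genes above the signal filter, and the other 12 read 1.70 or less on every array. Their summed signal was 5.62 to 5.67 in siNTC and 5.77 in siNF45. Of the duct markers, Krt7 differed by 0.67, Sox9 by 0.03 and Krt19 by -0.20, the last 2 below the filter. The part of these marker differences in the results below was not tested, and in such bulk samples fewer cells of a type and less RNA per cell cannot be told apart.

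Thioredoxins are small proteins that reduce disulfide bonds in other proteins, and thioredoxin reductases, which are selenoproteins, recharge them with electrons from NADPH. Txnip binds reduced thioredoxin and inhibits it. Txnip belongs to the alpha-arrestins, a family with arrestin folds that bring membrane proteins to ubiquitin ligases of the NEDD4 family, and it promotes removal of glucose transporters from the cell surface. In beta cells Txnip is strongly induced by glucose through the factors MondoA (Mlxip) and ChREBP (Mlxipl) with their partner Mlx, and high Txnip is linked to beta cell death. Arrdc4 is induced by glucose through the same factors, which bind carbohydrate response elements, paired E-box-like sites that are a fixed number of bases apart.

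The upstream sequences of Txnip, Arrdc4 and Arrdc3 are shown because Txnip and Arrdc4 share this glucose control while Txnip and Arrdc3 were the members with the largest differences here. The sequences are the 250 bases before the annotated start in RefSeq (build GRCm38.p6), 5′ to 3′ on the strand of the gene, at chr3:96557707-96557956 on the plus strand for Txnip, chr7:68749239-68749488 on the minus strand for Arrdc4 and chr13:80883134-80883383 on the plus strand for the first of the 3 annotated starts of Arrdc3. Capitals mark matches on either strand to the 5 motifs described after the sequences.
Txnip: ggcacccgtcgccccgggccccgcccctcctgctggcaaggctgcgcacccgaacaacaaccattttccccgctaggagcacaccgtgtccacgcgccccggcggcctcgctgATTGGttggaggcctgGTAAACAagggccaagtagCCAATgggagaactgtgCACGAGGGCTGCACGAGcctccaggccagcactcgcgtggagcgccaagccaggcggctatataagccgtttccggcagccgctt
Arrdc4: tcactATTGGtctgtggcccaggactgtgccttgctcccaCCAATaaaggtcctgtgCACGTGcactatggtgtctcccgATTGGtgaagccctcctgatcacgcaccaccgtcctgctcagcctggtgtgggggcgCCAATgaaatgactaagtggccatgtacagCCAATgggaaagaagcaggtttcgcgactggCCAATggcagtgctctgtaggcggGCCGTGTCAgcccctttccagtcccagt
Arrdc3: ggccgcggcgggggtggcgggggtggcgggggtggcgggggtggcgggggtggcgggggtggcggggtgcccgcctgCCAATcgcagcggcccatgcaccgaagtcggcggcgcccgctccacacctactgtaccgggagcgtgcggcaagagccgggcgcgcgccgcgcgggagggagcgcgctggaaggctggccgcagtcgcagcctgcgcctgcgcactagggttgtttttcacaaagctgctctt

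All 9 genes had an entry in the RefSeq promoter table, with 13 windows in all. The search covered both strands for CACGTG, the canonical E-box, for a pair of CACGNG sites 5 bases apart, a pattern of carbohydrate response elements that contains an E-box where the N of a site is T, for CCAAT, the box bound by NF-Y, for GTAAACA, bound by forkhead factors, and for TGACNNNGC, a core of antioxidant response elements. These motifs were chosen with the sequences and the expression values known. Txnip held the paired CACG pattern as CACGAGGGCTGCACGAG, from 85 to 69 bases before its start, and 15 of 32851 annotated windows of the same length (0.0457%) held that pattern. Txnip also held GTAAACA, found in 3.17% of all windows, and 2 CCAAT boxes, which 33.8% of windows hold at least once. Arrdc4 held CACGTG from 193 to 188 bases before its start (6.02% of windows), 6 CCAAT boxes and TGACNNNGC (10.2% of windows), and the paired pattern was not matched in it. The windows of the first and the third start of Arrdc3 overlap and contain the same single CCAAT box, and the window of its second start had no match. Among the other members, Arrdc2 held 3 CCAAT boxes, Txn2 held 1, the second start of Txnrd1 held 1 CCAAT box and TGACNNNGC, and Arrdc1, Txn1, Txnrd2 and the other starts of Txnrd1 had no match. A match describes letters in a window and is not a measured binding site.

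**Figure D1:**
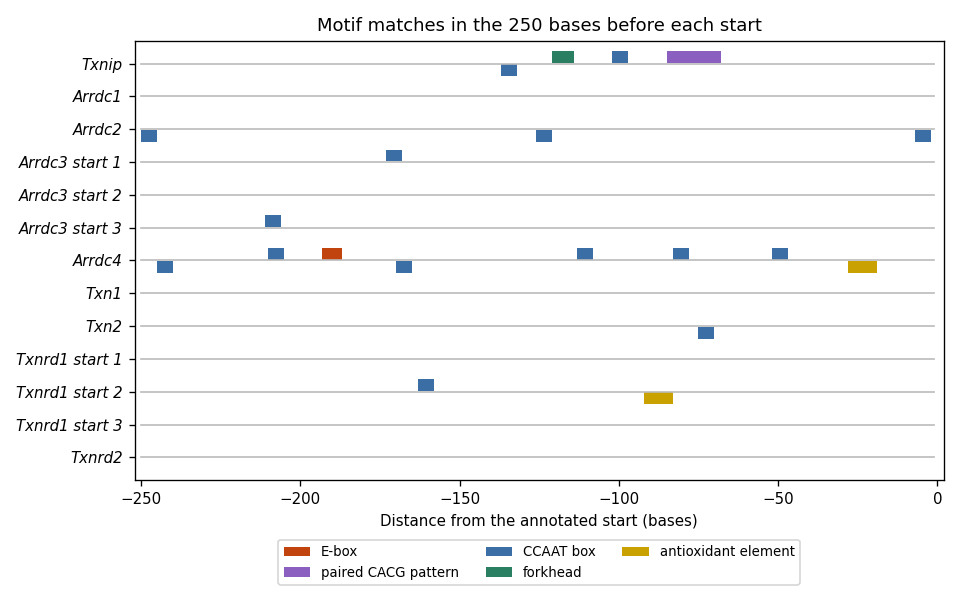
Matches to 5 motifs in the 250 bases before each annotated start of the 9 genes, with the distance from the start in bases on the x axis and one line per start; blocks above a line are on the strand of the gene and blocks below it on the other strand. Txnip is the member with the paired CACG pattern and Arrdc4 the one with the E-box and 6 CCAAT boxes.

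Txnip, the thioredoxin inhibitor, had the largest difference of the 9 genes. It read 4.34 and 4.45 in siNTC and 5.38 and 5.48 in siNF45. Both siNF45 arrays lay above both siNTC arrays, with a gap of 0.93 between the groups and at most 0.11 between replicates. The mean went from 4.40 ± 0.08 in siNTC to 5.43 ± 0.07 in siNF45 (SD, n = 2 each), a difference of 1.04 (SE 0.12, 95% interval 0.73 to 1.34) or 2.05-fold. Among 11742 genes above the signal filter, a mean of at least 1.65 over the 4 arrays, this was the 15th largest positive difference. A further probe set that lists Txnip together with another gene symbol was not assigned to either gene. It read 1.39 and 1.14 in siNTC and 1.28 and 2 in siNF45, with overlapping groups.

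The alpha-arrestin relatives of Txnip did not share one pattern. Arrdc3, an adaptor in the trafficking of beta-adrenergic receptors, read 5.74 and 5.69 in siNTC and 6.18 and 6.17 in siNF45. Its groups were separate, with a gap of 0.43 and replicates within 0.05 of each other. The difference was 0.46 (SE 0.12, 95% interval 0.17 to 0.75), or 1.38-fold, and 97.8% of tested genes had a lower one. Arrdc4, the glucose-induced relative, read 2.69 and 2.34 in siNTC and 2.65 and 2.31 in siNF45. The groups overlapped almost fully, and the gap of 0.35 between the siNTC replicates was larger than the difference of -0.04 (SE 0.18). The 95% interval of Arrdc4 ran from -0.49 to 0.42, so a shift of up to 0.42 in the direction of Txnip lies within it. The sign of the Arrdc4 difference has no standing, since it was 0.14 without siNTC replicate 1, 0.14 without siNF45 replicate 2 and 0.10 after every array was shifted to a common median over the tested genes (centring).

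The remaining arrestin-domain genes were dim. Arrdc2 read 1.91 and 1.87 in siNTC and 2.14 and 1.60 in siNF45. The siNF45 arrays lay on either side of the siNTC arrays, and the difference of -0.02 (SE 0.20, 95% interval -0.51 to 0.47) is a mean of opposite deviations, 0.25 without siNF45 replicate 2 and -0.29 without siNF45 replicate 1. Arrdc1, which acts in the budding of vesicles at the plasma membrane, read 1.24 and 1.26 in siNTC and 1.28 and 1.04 in siNF45. Its mean of 1.21 was under the signal filter of 1.65, so it was the member left out of the fit, while Arrdc2, at a mean of 1.88, was the dimmest member inside it.

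**Figure D2:**
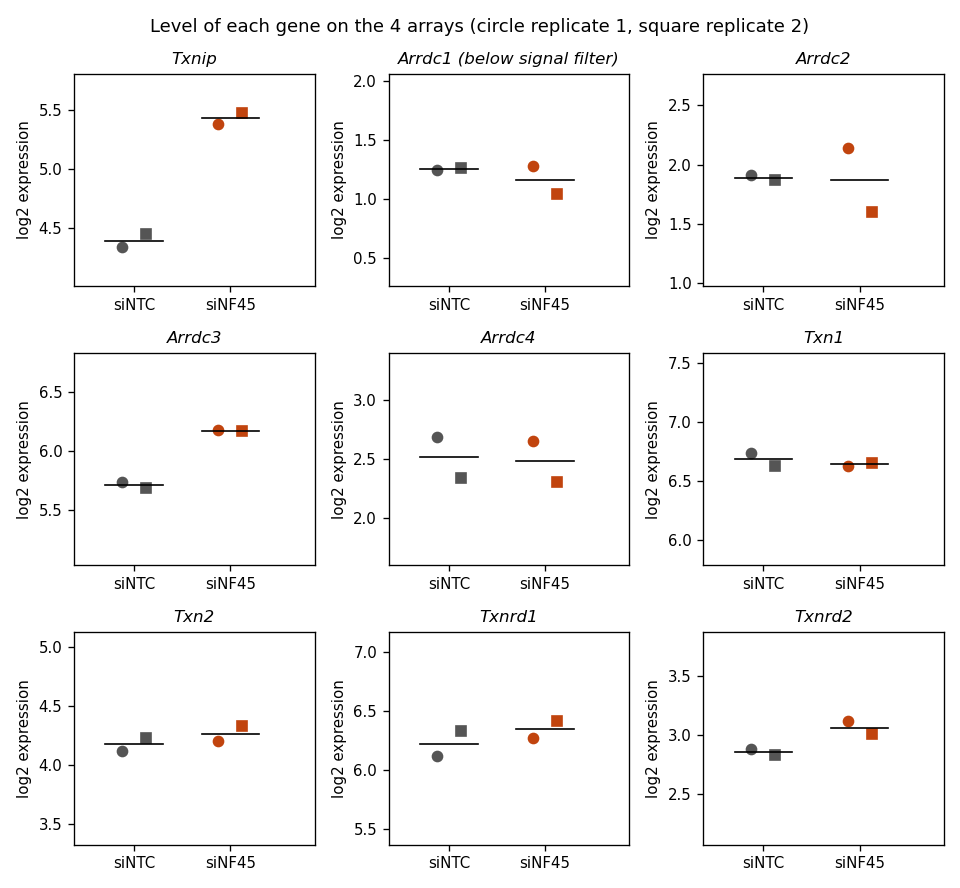
Deposited expression, taken as log2 (y axis, 1.8 log2 units in every panel) of the 9 genes on the 4 arrays, with siNTC in grey and siNF45 in orange, circles for replicate 1, squares for replicate 2 and a line at each group mean. The groups are separate for Txnip, Arrdc3 and Txnrd2 and overlap for the others.

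The thioredoxins, the proteins that Txnip inhibits, had overlapping groups. Txn1, the cytosolic thioredoxin, read 6.74 and 6.63 in siNTC and 6.63 and 6.65 in siNF45. A siNF45 array and a siNTC array had the same value, and the difference was -0.05 (SE 0.12, 95% interval -0.34 to 0.25), with the sign turned to 0.09 by centring. Txn2, the mitochondrial thioredoxin, read 4.12 and 4.23 in siNTC and 4.20 and 4.33 in siNF45. Its groups overlapped, with a difference of 0.09 (SE 0.13, 95% interval -0.22 to 0.40). These intervals do not show that the levels were equal, and they cover shifts of up to 0.34 down for Txn1 and 0.40 up for Txn2.

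Both thioredoxin reductases had small positive differences. Txnrd1, the cytosolic enzyme, read 6.12 and 6.33 in siNTC and 6.27 and 6.42 in siNF45. The arrays of the groups interleaved, and the difference of 0.12 (SE 0.14, 95% interval -0.22 to 0.46) was smaller than the gap of 0.21 between the siNTC replicates. Txnrd2, the mitochondrial enzyme, read 2.88 and 2.83 in siNTC and 3.12 and 3.01 in siNF45. Its groups were separate by 0.13, a little more than the 0.11 between the siNF45 replicates, and the difference was 0.21 (SE 0.12, 95% interval -0.09 to 0.51).

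Over the members, 8 of 9 were tested, 5 had a difference above 0 and 3 below, and the median was 0.11, beside -0.07 over all tested genes. The 9 genes were chosen with values of this comparison known, so their differences are a description and nothing is read from their call counts. By limma with Benjamini-Hochberg adjustment over all tested genes, 0 of the 8 passed an adjusted threshold of 0.05, where 0.0852% of tested genes did. Txnip passed in 4 of the 12 other fits, at the stricter signal filter, after quantile normalization, after centring and with a variance trend. In that order, these fits called 87 of 7977 tested genes and 62, 172 and 174 of 11742. Because Txnip was chosen with this comparison known, its passing there is description only and no support for a difference. At an unadjusted p under 0.05, 2 members were higher, Txnip and Arrdc3, beside 4.02% of tested genes, and 0 were lower, beside 13.2%. The groups did not overlap, with siNF45 higher, for 3 members and for 15.2% of tested genes, and with siNF45 lower for 0 members and 32.6% of tested genes. Centring adds 0.13 to every difference and put all 9 members above 0.

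**Figure D3:**
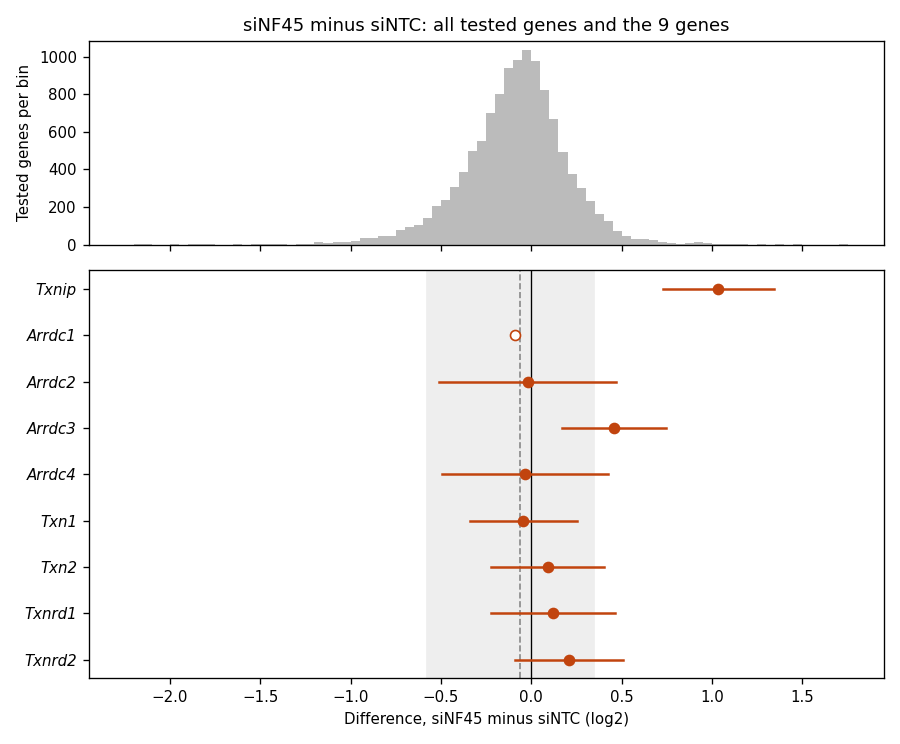
Top, number of tested genes per bin of 0.05 of the difference siNF45 minus siNTC on the log2 scale; bottom, the same difference for each of the 9 genes with its 95% interval from limma (Arrdc1, below the signal filter, as an open point without interval), the 5th to 95th percentile of all tested genes in grey and their median of -0.07 as a dashed line. Txnip and Arrdc3 lie beyond the 95th percentile of 0.35, and the other members lie within the grey band.

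The genes whose profile over the 4 arrays was nearest to that of Txnip were picked by the root mean square distance between profiles centred on their own means. They were Sct, which encodes the hormone secretin (distance 0.06), the copper transporter Atp7a (0.08), the homeobox gene Barhl1 (0.09), the peroxisomal transporter Abcd2 (0.09) and the guidance receptor Robo1 (0.09). Sct read 8.01 and 8.12 in siNTC and 9.04 and 9 in siNF45, and Atp7a read 6.42 and 6.39 in siNTC and 7.30 and 7.35 in siNF45. None of the 5 passed in the fit as designed, where their limma adjusted p was 0.072 to 0.079. These genes were picked for closeness to Txnip on the same 4 arrays, so differences and p-values like those of Txnip follow from the choice. Of the other members, Arrdc3 was nearest to Txnip, with 143 tested genes nearer, and Arrdc4 was farthest, with 6270 genes nearer.

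The lists of related genes are read against all 11742 tested genes. Of these, 4488 lay above 0 and 7254 below (7024 and 4718 after centring), and at an unadjusted p under 0.05 the shares were 4.02% higher and 13.2% lower (10.7% and 7.4% after centring). The median over all tested genes was -0.07 as deposited and 0.07 after centring, and the list medians are read against these values. Most factors known to regulate Txnip had negative differences as deposited. Of 11 tested regulators, 9 lay below 0 and 2 above (6 and 5 after centring). The median was -0.19 (-0.06 after centring), and 0 passed the adjusted threshold, while 4 were lower at an unadjusted p under 0.05 (1 after centring, 1 without siNTC replicate 1, 2 without siNTC replicate 2 and 1 without siNF45 replicate 2). Mlxip, which encodes MondoA, read 4.79 and 4.62 in siNTC and 4.35 and 4.25 in siNF45, a difference of -0.41 (SE 0.13, limma adjusted p = 0.218). Its groups were separate with siNF45 lower, as for 32.6% of tested genes, and the difference was -0.28 after centring. Mlxipl, which encodes ChREBP, differed by 0.11 with overlapping groups, and Mlx by -0.10; these values were looked up after the data were seen. The NF-Y subunits Nfya and Nfyc, which bind CCAAT boxes, differed by -0.33 (SE 0.12) and -0.38 (SE 0.15), with limma adjusted p of 0.242 and 0.271. After centring they differed by -0.20 and -0.25, and Nfyc differed by -0.23 without siNF45 replicate 2. The NF-Y subunit Nfyb, looked up afterwards, differed by -0.06 (SE 0.14) with overlapping groups. Ppargc1a, a transcriptional coactivator of mitochondrial and fasting metabolism, read 3.87 and 3.99 in siNTC and 3.02 and 3.15 in siNF45. It had the largest difference of the regulators, -0.85 (SE 0.13), with a limma adjusted p of 0.079, which was 0.049 at the stricter signal filter and 0.057 to 0.471 in the other 11 fits.

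Other targets of MondoA and ChREBP had differences in both directions. Of 20 listed genes 14 were tested, 4 lay above 0 and 10 below (7 and 7 after centring), the median was -0.11 (0.02 after centring), and 0 passed the adjusted threshold. At an unadjusted p under 0.05, 0 were higher and 2 lower, and 2 were higher and 1 lower after centring; without siNTC replicate 1 there were 0 of either. The fatty acid elongase Elovl6 differed by -0.73 (SE 0.17, limma adjusted p = 0.144), and fatty acid synthase (Fasn) by -0.41 (SE 0.12, limma adjusted p = 0.197). Gpd1, the glycerol phosphate dehydrogenase, differed by -0.33, and by -0.12 without siNF45 replicate 1 and -0.54 without siNF45 replicate 2. Pklr, the pyruvate kinase used as a standard ChREBP target, differed by 0.32 (SE 0.17, limma adjusted p = 0.410), and by 0.11 without siNTC replicate 1 and 0.53 without siNTC replicate 2.

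The list of glucose uptake and phosphorylation genes and other Txnip partners went in both directions. Looked up afterwards by role, the tested glucose transporters and hexokinase lay below 0 and the tested glucose-6-phosphatases above it. Slc2a1, the glucose transporter whose removal from the surface Txnip promotes, read 5.30 and 5.35 in siNTC and 4.64 and 4.69 in siNF45. Its groups were separate, with a difference of -0.66 (SE 0.12) and a limma adjusted p of 0.099, which was 0.043 with a variance trend and 0.062 to 0.471 in the other 11 fits. Hexokinase Hk1 read 4.26 and 4.13 in siNTC and 3.46 on both siNF45 arrays, a difference of -0.74 (SE 0.12, limma adjusted p = 0.094). The stress kinase Map3k5, which thioredoxin holds inactive, differed by -0.50 (SE 0.18; -0.29 without siNF45 replicate 1) and the phosphatase G6pc3 by 0.33 (0.17 without siNF45 replicate 2 and 0.18 without siNTC replicate 2). Slc2a2, the transporter typical of mouse beta cells, was looked up afterwards and differed by -0.17 (95% interval -0.50 to 0.17). Of 15 listed genes of this group 8 were tested, 4 lay above 0 and 4 below in both scalings, the median was -0.03 (0.10 after centring), 0 passed the adjusted threshold, and 0 were higher and 3 lower at an unadjusted p under 0.05 (1 and 2 after centring).

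The list of NEDD4-family ubiquitin ligases and arrestin relatives showed no call. Of 21 listed genes 15 were tested, 4 had positive and 11 negative differences around a median of -0.09, a balance that turned to 10 and 5 around 0.05 after centring. At an unadjusted p under 0.05, 0 were higher and 2 lower (1 lower after centring, 0 without either siNTC array and 1 without siNF45 replicate 2). The values of the genes with the smallest p moved with the siNF45 array left out. The beta-arrestin Arrb1 differed by -0.59 (SE 0.19, limma adjusted p = 0.226), and by -0.33 without siNF45 replicate 1. The ligase Smurf1 differed by -0.48 (SE 0.15), and by -0.31 without siNF45 replicate 2. The ligase Wwp2 differed by -0.42 (SE 0.21) and the retromer subunit Vps26b by -0.20, and without siNF45 replicate 2 by -0.12 and -0.09.

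Among thioredoxin-fold and glutaredoxin relatives, the cytosolic glutaredoxin Glrx stood highest. Glutaredoxins reduce disulfides with glutathione in place of thioredoxin reductase. Glrx read 6 and 5.69 in siNTC and 6.67 and 6.65 in siNF45. Its groups were separate by more than the replicates, with a difference of 0.82 (SE 0.15) or 1.76-fold; the limma adjusted p was 0.103, and it was 0.028 after centring, 0.029 with a variance trend and 0.062 to 0.471 in the other 10 fits. The endoplasmic reticulum protein Txndc11 differed by -0.55 (SE 0.12, limma adjusted p = 0.132), the membrane-bound oxidoreductase Tmx1 by 0.34 and the spliceosome subunit Txnl4a by -0.36. Of 24 listed relatives 19 were tested, 8 lay above 0 and 11 below, a balance that turned to 11 and 8 after centring, and the median was -0.09 (0.04 after centring). None passed as designed, and 2 were higher and 2 lower at an unadjusted p under 0.05 (6 and 1 after centring, 1 and 2 without siNTC replicate 2, 1 and 1 without siNF45 replicate 1, 2 and 1 without either other array).

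The enzymes that draw on thioredoxin gave 0 calls and 0 higher and 1 lower gene at an unadjusted p under 0.05, with 4 of 11 tested members above 0, 7 below and a median of -0.14 (5, 6 and -0.01 after centring, with 0 genes at that p, as in each fit without 1 array except that without siNF45 replicate 1). The methionine sulfoxide reductases Msrb3 and Msrb2 differed by -0.44 (-0.25 without siNF45 replicate 2) and -0.28 and Msrb1 by 0.18. Msrb3, the lower gene at an unadjusted p under 0.05, had a siNF45 mean of 1.53, below the signal filter. Sulfiredoxin (Srxn1), which repairs peroxiredoxins, differed by -0.16. Targets of the oxidant-sensing factor NRF2 and glutathione genes went both ways, with 6 of 18 tested members above 0, 12 below and a median of -0.04, a balance that turned to 11 and 7 around 0.09 after centring. None passed, and 3 were higher and 2 lower at an unadjusted p under 0.05 (4 and 0 after centring). At that p, 0 were higher and 1 lower without siNTC replicate 2, and 0 higher and 1 lower without siNF45 replicate 1. Haem oxygenase (Hmox1) read 4.19 and 3.70 in siNTC and 4.78 and 4.49 in siNF45, a difference of 0.69 (SE 0.20, limma adjusted p = 0.198), or 0.45 without siNTC replicate 2. The glutathione transferase Gstm1 differed by 0.51 (SE 0.19; 0.25 without siNTC replicate 2 and 0.76 without siNTC replicate 1), glutathione reductase (Gsr) by -0.39 (SE 0.12) and the glutathione conjugate exporter Abcc1 by -0.40 (SE 0.13), with limma adjusted p of 0.203 to 0.273.

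Txnrd1 and Txnrd2 were set beside the other genes of the selenoprotein family and its insertion machinery. Of 24 such genes 21 were tested, 9 had positive and 12 negative differences around a median of -0.08 (11 and 10 around 0.05 after centring), and 0 passed, with 0 higher and 4 lower at an unadjusted p under 0.05 (0 and 2 after centring, and likewise when replicate 2 of either group was left out). Gpx3, the secreted glutathione peroxidase, read 2.50 and 2.65 in siNTC and 1.81 and 1.32 in siNF45, a difference of -1.01 (SE 0.19). Its limma adjusted p was 0.114 as designed, 0.045 after centring and 0.063 to 0.258 in the other fits that kept Gpx3 and all arrays. The siNF45 mean of Gpx3, 1.565, was below the signal filter, which its mean over all arrays passed through the siNTC values. The effect of this on its difference and p-values was not tested. The endoplasmic reticulum selenoproteins Selenot and Selenos differed by -0.63 (SE 0.13) and -0.45 (SE 0.13), with limma adjusted p of 0.128 and 0.185, and that of Selenot was 0.033 with a variance trend and 0.088 to 0.471 in the other 11 fits. Pstk, the kinase that makes the precursor of selenocysteine on its transfer RNA, differed by -0.34 (SE 0.13). Both reductases thus had the sign of 9 of these 21 relatives; whether the reductases differ from the family was not tested.

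**Figure D4:**
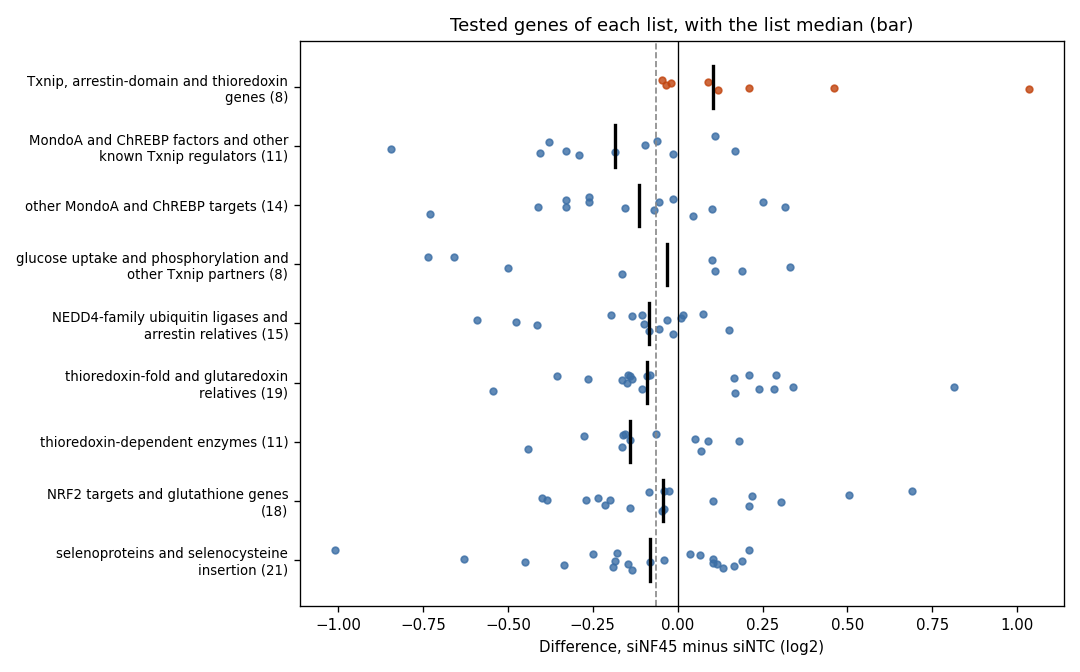
Difference siNF45 minus siNTC on the log2 scale (x axis) of every tested gene in the 8 lists of related genes and of the 8 tested members (orange), with the number of tested genes in brackets, the list median as a black bar and the median of all tested genes, -0.07, as a dashed line. Txnip at 1.04 lies to the right of every gene of the related lists, of which Glrx at 0.82 is the highest.

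The differences of Txnip and Arrdc3 kept their sign under every alternative. Centring moved both by more than their replicate SD, and quantile normalization did so for Arrdc3. Over the alternatives Txnip ranged from 0.98 to 1.17 and Arrdc3 from 0.44 to 0.59, and Txnrd2 ranged from 0.16 to 0.34. Txn2 and Txnrd1 stayed above 0, down to 0.03 and 0.02 where 1 array was left out. Arrdc2, Arrdc4 and Txn1 took values on both sides of 0.

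**Figure D5:**
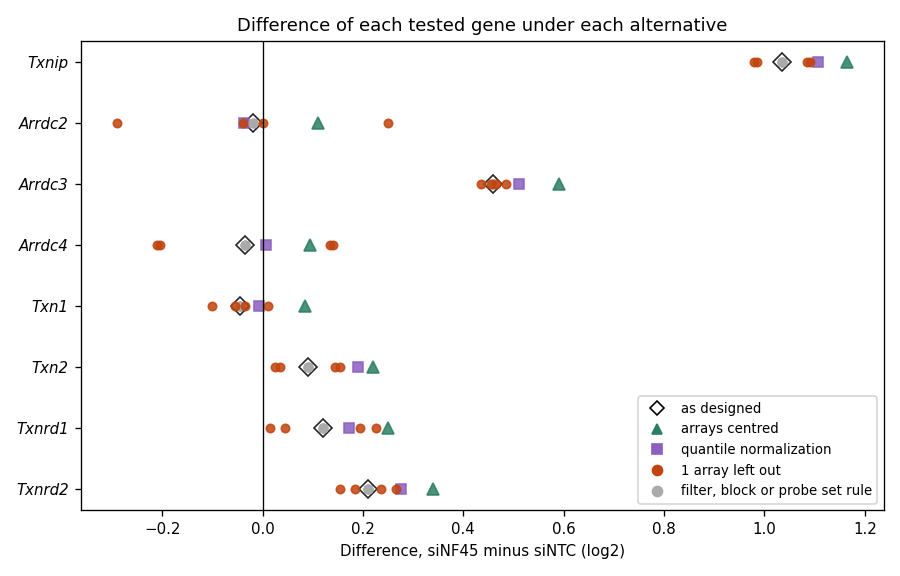
Difference siNF45 minus siNTC on the log2 scale (x axis) of the 8 tested members as designed (diamonds), with arrays centred (triangles), after quantile normalization (squares), with 1 array left out (orange circles) and with another filter, the replicate block or another probe set rule (grey circles). Txnip and Arrdc3 stay apart from 0, and Arrdc2, Arrdc4 and Txn1 fall on both sides of it.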

How the data were processed

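The values deposited by the authors, 1 for each probe set on each array, come from Transcriptome Analysis Console per the submitters' processing notes. Software version, summarisation, background correction and log base are not stated there: values from 0.12 to 12.21 with array medians of 1.64 to 1.66 deposited by the authors were taken as log2, and all folds rest on that base. Those medians are over all probe sets. Over the tested genes the array medians were 3.82 and 3.76 in siNTC and 3.72 and 3.60 in siNF45. The columns are uncentred and named by sample, so direction is fixed by the labels. Of 41345 probe sets, 23521 carried 1 gene symbol, 1814 several and 16010 none. Probe sets with 1 symbol and a mean over the 4 arrays no lower than the overall median of 1.65 were kept, the brightest per gene. The comparison used limma 3.58.1 under R 4.3.3 (lmFit, eBayes, no covariate; 2 residual and 3.69 prior degrees of freedom) with Benjamini-Hochberg adjustment over 11742 genes, and the script was tested on simulated data. The number of arrays limits the precision. The members, lists, markers and motifs were chosen with earlier results of these data known. Named were the members, Ilf2, any gene of a list that passed and otherwise the 4 with the smallest p, and the 5 genes nearest to Txnip. Mlx, Mlxipl, Nfyb, Slc2a2 and the islet and duct markers were named after their values were seen. Listed genes without a probe set of 1 symbol are not analysed here. Genes below the filter were not tested in the fit as designed, and among them values are given only for Arrdc1 and the cell type markers.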

Additional observations from a re-analysis of the deposited data

How the results depend on the processing

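The number of called genes moved under most alternatives. As designed, 1 gene was called higher and 9 lower, and the same counts came from robust eBayes and from averaged probe sets. The counts were 17 and 70 at the 70th percentile filter, 18 and 44 after quantile normalization, 71 and 101 after centring, 40 and 134 with a variance trend, and 30 and 160 at an adjusted threshold of 0.10. They were 0 and 0 with the replicate block, where 442 genes were higher and 1467 lower at an unadjusted p under 0.05, and 0 and 0 in all 4 fits that left out 1 array, with 250 to 402 higher and 834 to 1376 lower at an unadjusted p under 0.05; Ilf2 missed the threshold there too. The cause of these changes in counts was not tested, except that a fit without an array has fewer residual degrees of freedom, as has the fit with the block. Same-numbered replicates deviated with a correlation of 0.0062 over genes, so the numbers were not taken to pair the samples. Txnip moved to 1.17 after centring, and Arrdc3 to 0.51 after quantile normalization and 0.59 after centring, more than their replicate SD. Of 78 alternative differences of the members, 69 kept their sign; the others were those of Arrdc2, Arrdc4 and Txn1. The other 38 named genes kept their direction in 450 of 450 values. Of 192 alternative counts at an unadjusted p under 0.05 over the lists, 152 stayed within 1.5 times. Among the tested members the standard error was largest for the dim Arrdc2 and Arrdc4.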
